A study of Danio rerio with 8 samples.

Results

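The distal trunk of zebrafish larvae was followed through normal development from 72 to 96 hours post fertilization (hpf) in animals that had received the solvent alone. The interval is described by 2 of the 8 deposited samples, the control samples at 72 and 96 hpf, and was measured in the 21950 of 24345 gene identifiers whose mean level over the 8 samples reached 10 normalized counts. For each gene the 96 hpf level was set against the 72 hpf level as log2 of the ratio after adding 1 count to both, so that a positive value means a higher level at 96 hpf.

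RNA was sequenced from trunk tissue cut at the pigment gap near the base of the tail, in Tropical 5D wildtype larvae, at 48, 60, 72 and 96 hpf. The series compares benzo[k]fluoranthene (12 µM) with 1% DMSO, its solvent. All control animals were wildtype, with no transgene named, were freed of their chorions at 4 hpf and were kept in 1% DMSO from 6 to 8 hpf onward, in the dark at 28.5 °C. Untreated animals without DMSO are not part of the design used here, so normal development means development in the solvent. Each sample is the authors' mean over 4 pools of 50 animals. There is thus 1 value per time point and no spread between replicates to test against. Every comparison is one of size, a gene counts as higher or lower from a 2-fold ratio on (log2 of 1 or -1), and the verbs rose and fell are kept for such genes.

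Around these stages the zebrafish larva inflates its swim bladder and begins to swim, while the median fin fold around the tail is still supported by collagen-like actinotrichia fibres. The trunk at this age holds body wall muscle, spinal cord, notochord, a bilayered skin with ionocytes and mucous cells, pigment cells derived from the neural crest, and circulating embryonic red cells. Embryonic globins, made in the primitive wave of blood formation, are later replaced by adult forms.

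Markers of the tissues in the cut were present at both ages. The epidermal keratin gene krt4 stood at 2683523 normalized counts at 72 hpf and 2782088 at 96 hpf, and the fin fold actinotrichia gene and2 at 2296307 and 2090017. The muscle creatine kinase gene ckma stood at 28046 and 28492, and the glial gene GFAP at 9974 and 9177. Of 13 markers of organs that the cut should leave out, 6 were matched to an identifier. The liver gene fabp10a (9.35 and 15.2), the trypsin gene prss1 (10.3 and 17.7), otx2a (1.95 and 2.11) and hoxb1a (13.5 and 14.1) were low at both ages.

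The trunk differed less between 72 and 96 hpf than between any other pair of control time points. The median gene stood at a log2 ratio of 0.01, with quartiles of -0.11 and 0.12, and 92.6% of genes lay within 1.5-fold. At 2-fold or more, 310 genes rose (1.41% of those measured) and 241 fell (1.1%), together 2.51%. At 1.5-fold or more the counts were 868 higher (3.95%) and 762 lower (3.47%). Summed normalized counts were 88010584 at 72 hpf and 87750209 at 96 hpf. Most of the 2-fold differences lay in weakly measured genes, since 403 of the 551 had a mean under 50 normalized counts over both ages and 47 were listed at 0 in 1 of them. Among the 19104 genes averaging at least 50, 89 rose (0.466%) and 59 fell (0.309%).

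The order of the control columns did not follow the order of the stages throughout. Against 48 hpf, 2529 genes (11.5%) differed 2-fold or more at 72 hpf and 2012 (9.17%) at 96 hpf, so the later tissue lay nearer to the start. The median absolute log2 ratio to 48 hpf was 0.29 at 72 hpf and 0.26 at 96 hpf. Against 60 hpf the counts were 764 (3.48%) at 72 hpf and 748 (3.41%) at 96 hpf. The source of this order was not tested, and with 1 mean value per time it touches every value of the interval.

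**Figure D1:**
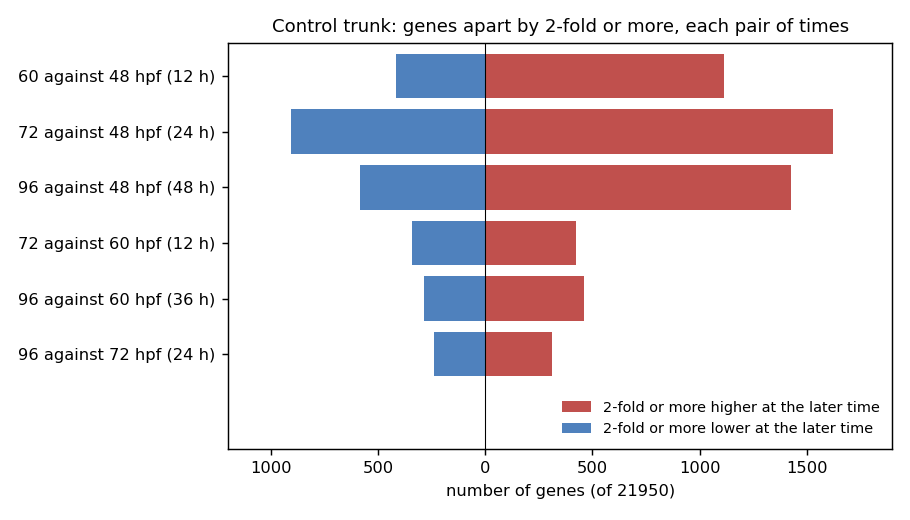
Number of genes, of 21950, that were 2-fold or more higher (right) or lower (left) at the later time, for each pair of control time points with the hours between them. The bars are shortest for 96 against 72 hpf (310 higher and 241 lower), and those for 96 against 48 hpf (1426 and 586) are shorter than those for 72 against 48 hpf (1622 and 907).

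Because these genes were chosen for a difference between 72 and 96 hpf, a place of 72 hpf at one end of the 4 levels is partly set by the choice, and the counts are a description. Of the 89 genes that rose and averaged at least 50, 69 had the lowest of their 4 control levels at 72 hpf and 8 were higher at each successive time. Of the 59 that fell, 44 had their highest level at 72 hpf and 1 was lower at each successive time. At 96 hpf, 43 of the 89 reached the highest of the 4 levels and 31 of the 59 the lowest.

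The earlier step from 48 to 60 hpf shares no column with the step from 72 to 96 hpf, and genes sorted by it went the other way in the later step. Of the 19096 genes averaging at least 50 over the control samples, 10067 (52.7%) stood higher at 96 than at 72 hpf. Among the 25 genes that had been 4-fold or more lower at 60 than at 48 hpf, 22 (88%) stood higher at 96 than at 72 hpf, with a median log2 ratio of 1.13. Without genes listed at 0 in a control sample the count was 19 of 21. Of 137 genes that had been 2- to 4-fold lower, 105 (76.6%) stood higher at 96 hpf, with a median of 0.38. At the opposite end, 51 of 174 genes (29.3%) that had been 4-fold or more higher at 60 hpf stood higher at 96 hpf, with a median of -0.15. Across the 19096 genes, which are not independent replicates, the 2 log2 ratios had a Pearson r of -0.27 and a Spearman rho of -0.35. The 4 columns come from 1 joint normalization, and its part in this relation was not tested.

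**Figure D2:**
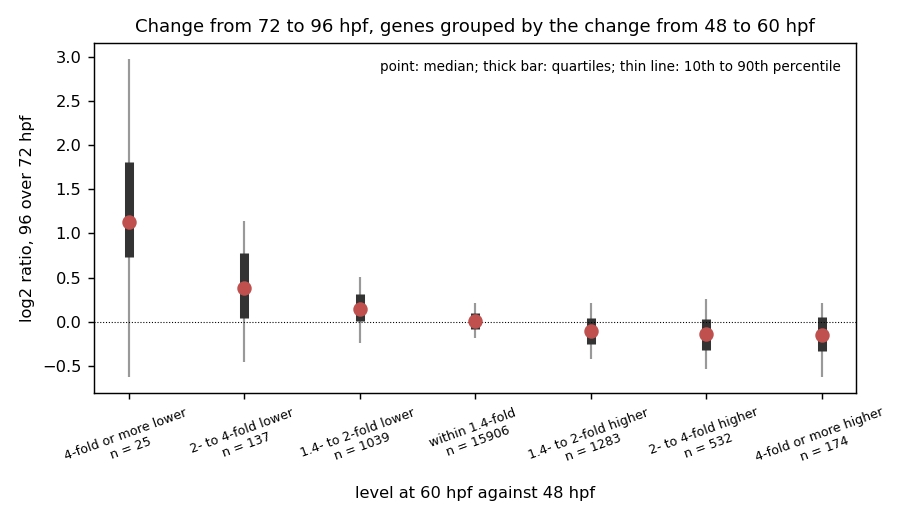
Log2 ratio of 96 over 72 hpf (y axis) for genes grouped by the ratio of 60 over 48 hpf (x axis, number of genes under each group), with points for medians, thick bars for quartiles and thin lines for the 10th to 90th percentile. The median runs from 1.13 in genes that had been 4-fold or more lower at 60 hpf to -0.15 in those that had been 4-fold or more higher.

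The genes with the highest ratios had varied functions. Normalized counts of a gene are given from here on in the order 48, 60, 72 and 96 hpf. The embryonic beta globin gene hbbe3 stood at 1759, 398, 35.4 and 322 and rose by 3.15 (log2). csmd2, a gene of a large membrane protein with CUB and sushi domains, stood at 97.0, 94.8, 73.9 and 494 and rose by 2.72, so that its level was flat up to 72 hpf and highest at the end. The fibronectin gene FN1 (ENSDARG00000006526), which encodes an adhesive matrix glycoprotein, stood at 24722, 18553, 11756 and 32727 and rose by 1.48. Its other identifier, FN1 (ENSDARG00000019815), stood at 23784, 24316, 22979 and 24804, a log2 ratio of 0.11. RHCG (ENSDARG00000007080), a Rhesus family ammonia channel gene of zebrafish ionocytes, stood at 15.5, 75.6, 1211 and 3628 and rose by 1.58. It was among the 8 genes that were higher at each successive time.

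Several of the highest ratios belonged to genes that had dropped from 48 to 72 hpf and stood part of the way back at 96 hpf. The matrix gene emilin3a, expressed in the zebrafish notochord, stood at 4029, 996, 434 and 1316 (log2 ratio 1.60). The caudal homeobox gene cdx4, a posterior patterning factor, stood at 406, 70.9, 34.2 and 103 (1.56). oacyl stood at 3725, 897, 223 and 779 (1.80), and the coagulation factor V gene f5 at 1374, 360.3, 225 and 582 (1.37). In all of these the 96 hpf level lay above that at 72 hpf and below that at 48 hpf. The serine protease gene tmprss5 (637, 226, 79.2 and 231) and CYB561A3 (ENSDARG00000028257), a ferric reductase gene (398, 89.1, 27.4 and 83.7), took the same course.

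Others ended above all earlier levels. The thyroglobulin gene TG stood at 19.0, 48.0, 42.5 and 144 (log2 ratio 1.74). The complement gene c6.2 stood at 559.5, 319, 207 and 579 (1.48), and the neuropeptide gene CARTPT at 352, 193, 181 and 481 (1.4). hpca, which encodes the neuronal calcium sensor hippocalcin, stood at 886, 700.2, 611 and 1540.0 (1.33). The cytokine gene il11a stood at 77.2, 49.6, 46.4 and 118 (1.33) and gig2p at 14.5, 32.9, 49.8 and 144 (1.52). PROM1 (ENSDARG00000034007), a prominin gene, stood at 15.9, 121, 47.4 and 125 (1.38), level with its 60 hpf value. DUSP10, a phosphatase gene of stress kinases, stood at 95.4, 18.1, 23.3 and 83.0 (1.79) and so came back close to its 48 hpf level.

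The lowest ratios included synaptic, signalling and globin genes. RIMS1, which encodes a scaffold of the presynaptic active zone, stood at 196, 213, 1504 and 123 and fell by 3.60, so that 72 hpf alone was high. RGS5, a regulator of G protein signalling known from pericytes, stood at 146, 34.5, 177 and 32.1 (log2 ratio -2.43). The phospholipase gene plb1 stood at 19.9, 20.7, 136 and 27.0 (-2.29). For ELMOD1 the values were 138, 157, 232 and 51.4 (-2.15), and for the Mediator kinase gene CDK19 they were 197, 253, 354 and 88.1 (-1.99). Both climbed to 72 hpf and ended at the lowest of their 4 levels.

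The onzin-related genes ponzr3 and ponzr4 shared a peak at 60 hpf. ponzr3 stood at 32.3, 872, 433 and 152 (log2 ratio -1.5) and ponzr4 at 19.7, 912, 291 and 95.0 (-1.60), so both fell through the last 3 time points. Because Salmon divides reads among near-identical copies, the split between such family members is uncertain. The apelin receptor gene aplnra, of vessel precursors, stood at 77.2, 133, 151 and 60.6 (-1.31). The palmitoyltransferase gene ZDHHC2 stood at 101, 222, 338 and 139 (-1.28), and WWC1, which encodes the Hippo pathway protein KIBRA, at 591, 271, 436 and 175 (-1.32). znfl1g (113 to 37.0), TOP1 (ENSDARG00000086775, 333 to 109.7), the ALK ligand gene alkal2b (98.1 to 42.0), mchr2b (137 to 59.3), fam20ca (179 to 78.1) and MPP4 (ENSDARG00000058222, 90.7 to 39.7) completed the lowest group, each given from 72 to 96 hpf.

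Some extreme ratios rest on values listed at 0. MRPS22, a mitochondrial ribosomal protein gene, was listed at 0, 821, 908 and 0, and the lectin gene ERLEC1 at 1023, 0, 0 and 239.9. In all, 12 genes were listed at 0 at 1 of the 2 ages and at 50 or more at the other. MEIOB, a meiosis gene, went from 1.00 to 148 after 7.52 and 0.931. Near the 2-fold line, il21r.1 (75.6 to 152) and hbae1.2 (9837 to 4912) lay just inside, and IRX1 (147 to 293, log2 ratio 0.99) and ankrd50 (154 to 76.7, -0.99) just outside.

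**Figure D3:**
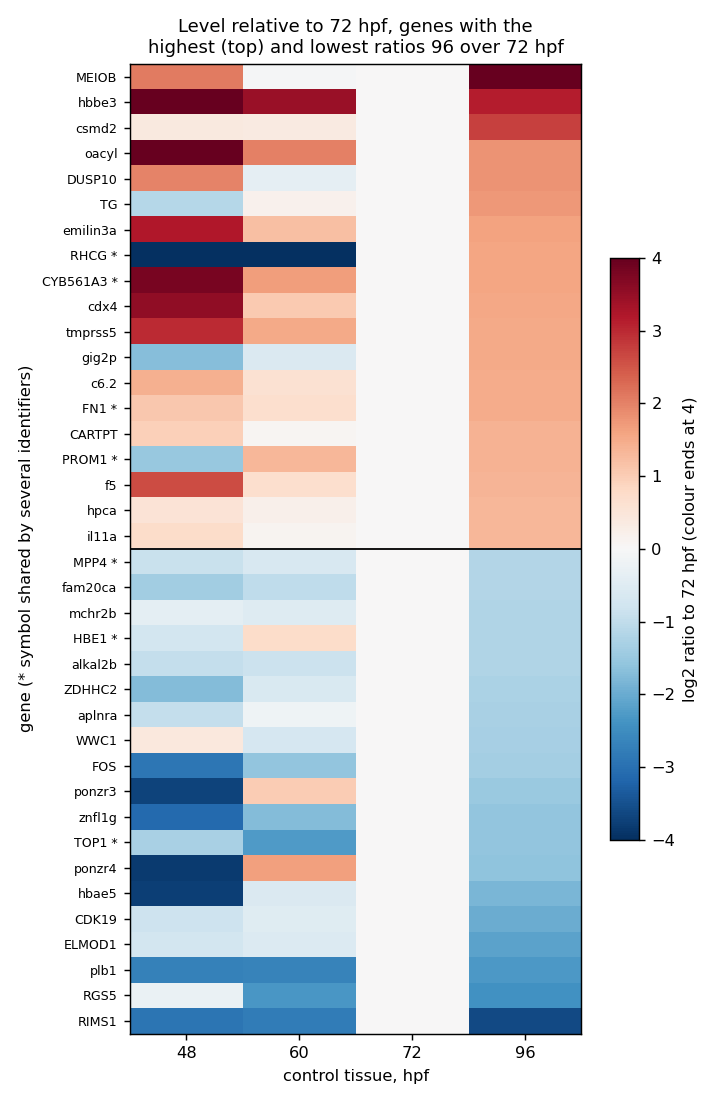
Log2 ratio of each control level to that at 72 hpf (colour, ending at 4 and -4) for the genes with the highest (above the line) and lowest (below it) ratios of 96 over 72 hpf, leaving out MRPS22 and ERLEC1, which were listed at 0. Among the highest, hbbe3, oacyl, emilin3a and cdx4 are also red at 48 hpf, whereas RHCG is deep blue there.

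Red cell genes stood lower at 96 hpf as a group. Of 43 listed erythroid and globin genes 11 were not matched, 34 identifiers were matched and 31 passed the filter. Of these 1 rose and 3 fell at 2-fold, against 1.41% and 1.1% of all genes, and 23 of 31 stood lower, with a median of -0.23 against 0.01 for all genes. The summed level was 64739, 142938, 96827 and 65154, which is close to that at 48 hpf after a peak at 60 hpf. In bulk tissue, fewer cells of a type and less RNA per cell cannot be told apart. All but 1 of the globin genes named here stood lower at 96 hpf. The alpha globin genes hbae3 (12065, 47051, 28870.2 and 14388, log2 ratio -1.0) and hbae5 (27.2, 253, 379.7 and 105, -1.84) fell. hbae1.2 stood at 5452, 16530.5, 9837 and 4912 (-1.0), a size that ended just under 2-fold (-0.998) with the same total in every control sample. hbae1.1 (11513, 30645, 18432 and 12336) and hbae1.3 (2882, 8160.4, 5373 and 2810.4) stood at -0.58 and -0.93. Under the epsilon globin symbol, which was not in the list, HBE1 (ENSDARG00000087390) stood at 11193, 30741, 18493 and 8031 (-1.20) and HBE1 (ENSDARG00000045143) at 665, 5416, 6232 and 3016 (-1.05). Among them hbbe3 alone rose. The heme synthesis gene alas2 (748, 2417, 1408 and 1014, log2 ratio -0.47) and the erythroid factor gene klf1 (21.3, 62.0, 61.9 and 31.3, -0.96) stood lower without reaching 2-fold. Globin copies are near-identical, so values of single globin genes are uncertain.

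Melanophore genes had the lowest median of the lists described, -0.29, with no member at 2-fold. Of 21 listed genes 1 was not matched and 19 identifiers passed the filter, of which 14 stood lower. The melanosome matrix gene pmela stood at 27957, 26103, 24953 and 17038 (-0.55), so most of its decline lay in the last step. The transporter genes OCA2 (1379, 1156, 1157 and 751, -0.62), SLC24A5 (1029.6, 890.2, 1009 and 663, -0.60) and SLC45A2 (3243, 3735, 3313 and 2266, -0.55), which set melanosome pH and ion content, were likewise lowest at 96 hpf. Among the pigment enzyme genes, TYRP1 (ENSDARG00000056151) stood at 22169, 18367, 15042 and 11925 (-0.33), also lowest at 96 hpf. DCT stood at 13275, 7681, 5031 and 4938 (-0.03), its decline lying before 72 hpf, and tyrosinase, TYR, at 1873, 1561, 1240.5 and 1012 (-0.29). MITF (ENSDARG00000003732), the symbol of the melanocyte master regulator, stood at 522 and 529. When members were matched by their own or current symbol alone, which left 3 identifiers, the list's median was -0.41. With a pseudocount of 10 it was -0.22. For genes averaging at least 50 across the 8 samples it was -0.21, and the erythroid list, at -0.22, was then lower. Of 25 genes of xanthophores and iridophores, the yellow and silver pigment cells, 1 rose and none fell, with a median of 0.07. That member was FHL2 (ENSDARG00000003991, 58.7 to 124), while the purine gene PAICS stood at 7475 and 8164 and the pteridine gene GCH1 at 5248 and 5619.9.

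**Figure D4:**
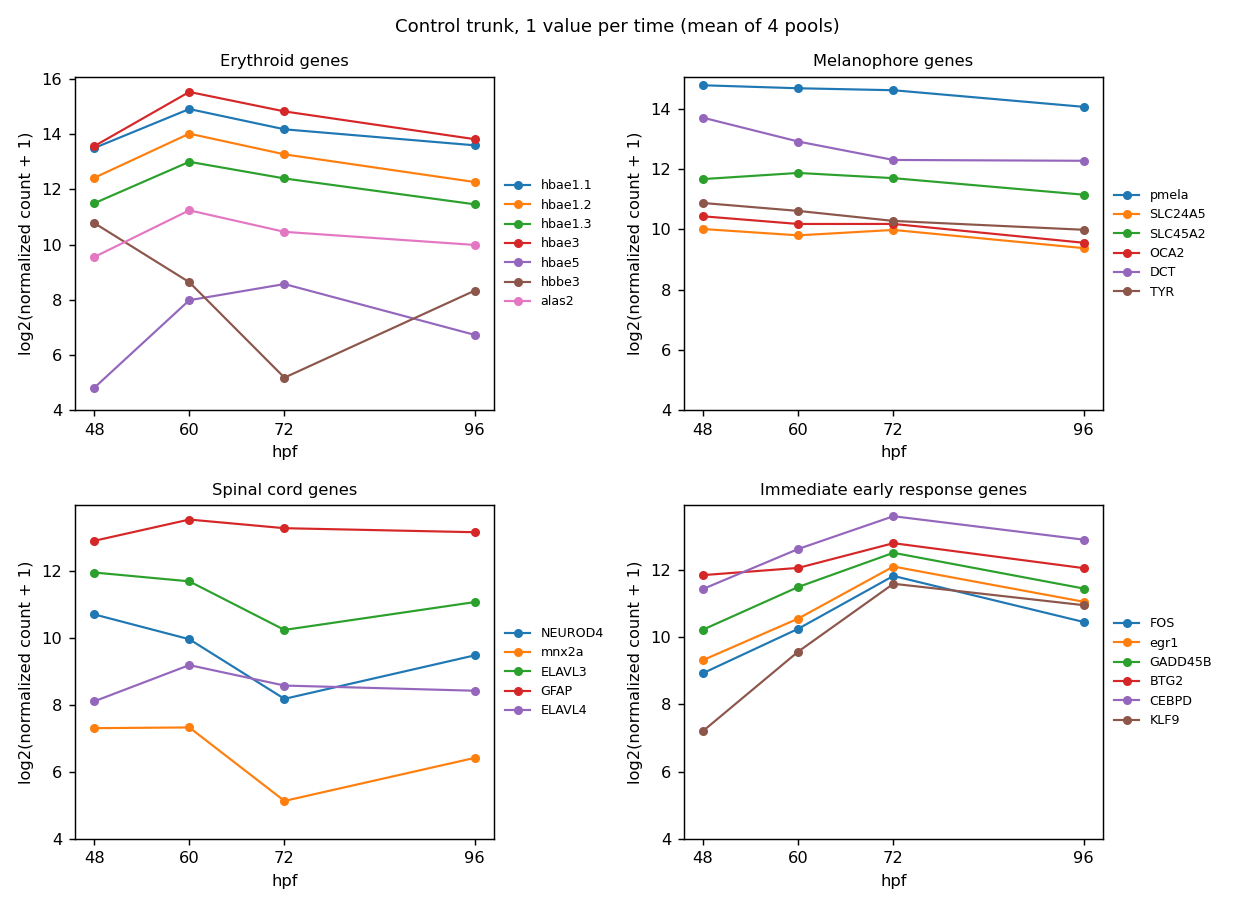
Control levels as log2(normalized count + 1) at 48, 60, 72 and 96 hpf for selected erythroid, melanophore, spinal cord and immediate early genes, 1 point per time (mean of 4 pools). The alpha globin genes hbae1.1, hbae1.2, hbae1.3 and hbae3 and alas2 peak at 60 hpf, hbae5 peaks at 72 hpf and hbbe3 dips there. SLC45A2, SLC24A5 and OCA2 dip after 72 hpf. NEUROD4, ELAVL3 and mnx2a are lowest at 72 hpf, and the immediate early genes peak there. ELAVL4 and GFAP are lowest at 48 hpf and peak at 60 hpf.

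Spinal cord genes had few members at 2-fold. Of 49 listed spinal cord genes 44 passed the filter, 2 rose, none fell and 32 stood higher, with a median of 0.14. Of all genes 1.41% rose, 1.1% fell and 52.4% stood higher. The neurogenic factor gene NEUROD4 stood at 1672, 999, 289.6 and 715 (1.3), and the motor neuron homeobox gene mnx2a at 157, 159.7, 34.1 and 84.5 (1.29). Another neurogenic helix-loop-helix gene, nhlh2, which was not in the list, stood at 776, 587, 176 and 442 (1.32). ELAVL3, of early neurons, stood at 3982, 3315, 1211 and 2158 (0.83). All 4 had their lowest level at 72 hpf and remained below 48 hpf at 96 hpf. The neuronal gene ELAVL4 took another course, at 275, 584, 382 and 343, lowest at 48 hpf and lower at 96 than at 72 hpf. The pan-neural tubulin gene TUBA1A stood at 24732, 18702, 13567 and 15408 (0.18) and GFAP at -0.12. The Notch ligand gene dlb, of newborn neurons in zebrafish, stood at 4232, 3051, 1399.9 and 2366 (0.76), in a Notch list in which 0 of 37 members reached 2-fold. Of 13 neuromuscular junction genes, the embryonic acetylcholine receptor subunit gene CHRNG rose (293, 230.3, 131 and 311, log2 ratio 1.24) and the other members stayed within 1.5-fold. Among 18 myelin and Schwann cell genes none reached 2-fold, and pou3f1, a factor of promyelinating Schwann cells, stood at 1537, 932, 478 and 876 (0.87). Among 57 voltage-gated channel genes 4 fell and none rose at 2-fold, against 1.1% and 1.41% of all genes. All 4 had a mean under 50, CLCN1 (ENSDARG00000012269) going from 58.1 to 1.48.

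Most muscle genes were close to level, though more fast sarcomere genes stood higher than lower. Of 26 fast sarcomere identifiers 1 rose and none fell, with a median of 0.14, and the member that rose, myha, was weak (13.6 to 34.3). At 1.5-fold or more 4 stood higher and none lower, against 3.95% and 3.47% of all genes. At any size 20 stood higher and 6 lower, where 52.4% of all genes stood higher. The fast myosin gene myhz2 stood at 91227, 117524, 66132 and 75409 (0.19). The skeletal actin symbol ACTA1 covered 2 identifiers, of which ENSDARG00000036371 stood at 30927 and 31115 (0.01) and ENSDARG00000055618 at 2231 and 3365 (0.59). The myosin-binding gene mybpc2b went from 864 to 1545 (0.84). Slow muscle genes stood at a median of -0.11 (16 passed, none at 2-fold), with the slow tropomyosin gene tpm3 at 87986 and 79813. Genes of muscle energy and calcium handling (30 passed) and myogenic regulators (25 passed) had none at 2-fold, with medians of -0.07 and 0.03. The calcium pump gene atp2a1 stood at 101308, 164294, 160175 and 177257, and the myogenic factor gene MEF2D at 7308, 7149.9, 5913 and 6911.

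The notochord and the skeletal tissues held their main genes. Of 30 notochord identifiers that passed, 1 rose, noto, and it stood under 10 at both ages (2.08 and 7.56). COL2A1 (ENSDARG00000069093), the sheath collagen gene, stood at 114546 and 132097 (0.21), and cmn, which encodes calymmin, at 49733 and 66722 (0.42). The list's median was 0.16. Of 28 cartilage and bone genes 1 fell, RUNX2, the bone master regulator, at 24.1 and 9.01. SPARC (260817 and 257518) and the decorin gene DCN (82424 and 82595) were level. Collagens had 0 of 46 members at 2-fold and a median of 0.02. The type I collagen gene col1a1a stood at 3744391, 4146076, 3807983 and 3612790.0 (-0.08). COL14A1, a fibril-associated collagen gene, stood at 9188, 3083, 1553 and 2980.5 (0.94).

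Adhesive and basement membrane genes had more members up than down at 2-fold. In the list of basement membrane, integrin and laminin genes 58 passed, 5 rose and none fell, against 1.41% and 1.1% of all genes, while the median was 0.03. Beside FN1 and emilin3a these were the thrombospondin gene thbs2a (921, 229, 93.2 and 205, log2 ratio 1.13) and the weakly measured laminin genes lamb3 (17.8 to 63.2) and lama3 (6.76 to 19.0). The most abundant members were level, the thrombospondin gene THBS4 (ENSDARG00000020072) at 90089 and 84714 and the integrin gene ITGAV at 79484 and 79822. Among collagen processing genes 0 of 34 reached 2-fold, and the collagen chaperone gene SERPINH1 (ENSDARG00000019949) stood at 111177, 60671, 49668 and 68171 (0.46). Of 49 matrix proteases and inhibitors none reached 2-fold, with the gelatinase genes MMP2 at 82977 and 79899.6 and MMP9 at 7850.0, 5063, 4393 and 6977 (0.67). Tendon and fibroblast genes (46 passed) had a median of -0.08, and the 1 member that fell, egr1, also belongs to the immediate early genes.

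Fin fold and skin were close to level at their abundant genes. Of 61 listed fin fold and actinodin genes 50 passed and none reached even 1.5-fold, against 3.95% higher and 3.47% lower among all genes. The actinodin gene and1 stood at 1017055, 1068481, 1068334 and 959702 (-0.15), and and2 at -0.14. The epidermal and periderm list likewise had 0 of 47 members at 1.5-fold, with a median of 0.08, and krt4 and cyt1 stood at 0.05 and 0.04.

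The list of ionocyte and mucous cell genes had several members up. Of 42 listed genes 40 identifiers passed, 4 rose and none fell at 2-fold, and 8 stood 1.5-fold or more higher. Of all genes 1.41% rose and 3.95% stood 1.5-fold or more higher. RHCG (ENSDARG00000007080) led, and the second ammonia channel identifier RHCG (ENSDARG00000003203) stood at 46.2, 579.8, 1292 and 2331 (0.85). Both climbed at every step. The mucin gene muc5.1 of skin mucous cells stood at 3087, 1217, 739.8 and 1492 (1.01), a partial return toward its 48 hpf level. The chloride channel gene clcn2c (5.57, 17.3, 24.9 and 52.0) and the sodium-calcium exchanger symbol SLC8A1 (ENSDARG00000013422, 55.6, 29.6, 15.5 and 35.3) rose at low levels, and TRPV6, the epithelial calcium channel gene, stood at 30.6 and 52.5 (0.76). Lateral line and hair cell genes (40 passed) had none at 2-fold, a median of -0.07, and a pvalb8 level of 1586, 21528, 54949 and 45381 (-0.28).

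Few immune genes reached 2-fold, and several of those that did were weakly measured. Of 46 listed complement and acute phase genes 29 identifiers passed, 4 rose, none fell and 22 stood higher, with a median of 0.20, against 1.41%, 1.1% and 52.4% of all genes and their median of 0.01. With the filter on the control samples alone the median was 0.15, and the counts were not repeated with it. The filter behind the counts takes in the exposed samples. c6.2 and the alternative pathway gene cfb (107, 41.2, 27.9 and 69.7, log2 ratio 1.29) rose, and the other 2, c9 (2.61 at 96 hpf) and FGB (14.7), were listed at 0 at 72 hpf. The adipsin gene cfd stood at 719, 2260.0, 6120.0 and 6548 (0.10). Of 43 genes of macrophages, neutrophils and mast cells 1 rose and 2 fell. The lysozyme gene lyz stood at 3780.4, 1487, 367 and 760.1 (1.05), and the macrophage-rich apolipoprotein gene apoeb at 70969 and 83691 (0.24). The 2 that fell, grna.1 (19.7 to 7.57) and cd74a (23.8 to 10.7), were weak. Interferon and antiviral genes had 2 of 38 members up and none down, among them the class I histocompatibility gene mhc1uba (117 to 244), while mhc1zba stood at 13792 and 12436. Lymphoid genes passed the filter in 11 of 16 matched identifiers, with foxp3a (5.10 to 12.8) the 1 that rose.

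Vessel genes stood at a median of 0.03. Of 49 that passed, 1 fell at 2-fold, aplnra, and none rose, against 1.1% and 1.41% of all genes. At 1.5-fold or more 1 stood higher and 3 lower, and at any size 25 stood higher and 24 lower. The member with most counts, ANGPTL4, stood at 4882 and 6619 (0.44). The scavenger receptor gene stab2, of veins and lymphatics, stood at 2282, 1393, 1796 and 946 (-0.92), and lyve1b, a lymphatic gene, at 19.9 and 10.7 (-0.83). The arterial ephrin symbol EFNB2 (ENSDARG00000020164) stood at 5343 and 5318.

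Immediate early genes, which are switched on within minutes of a stimulus, formed a list added after values had been seen, and its direction is therefore no independent evidence. Of its 50 identifiers that passed, 1 rose and 4 fell, 14 stood 1.5-fold or more lower, and the median was -0.23. The shares of all genes were 1.41%, 1.1% and 3.47%. FOS, an AP-1 factor gene, stood at 486, 1213, 3606 and 1394 (-1.37), and the zinc finger gene egr1 at 636, 1497, 4376 and 2117 (-1.05). The stress gene GADD45B (ENSDARG00000027744) stood at 1192, 2871, 5808 and 2779.6 (-1.06). All 3 were highest at 72 hpf and remained above their 48 hpf level at 96 hpf. The fourth, NPAS4, was weak (26.8 to 11.9). The flow-responsive factor gene klf2a (2153, 4019, 12348 and 7018, -0.82), SOCS3 (ENSDARG00000025428) of cytokine feedback (792, 1316, 3004 and 1726, -0.80) and the antiproliferative gene BTG2 (3665, 4254, 7081 and 4233, -0.74) had the same shape. DUSP10 was the member that rose, and FOSL2 stood at 3243 and 5117 (0.66).

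Hormone-responsive genes overlapped with these. Of 28 glucocorticoid and stress hormone genes 1 fell, GADD45B, and the median was -0.08. KLF9, a target of glucocorticoid and thyroid hormone receptors, stood at 147, 758, 3068 and 1973 (-0.64), and CEBPD at 2757, 6284, 12344 and 7610.0 (-0.70). TXNIP (ENSDARG00000036107) stood at 53991, 39041, 32099 and 43955 (0.45). No clock gene of 47 reached 2-fold, with a median of -0.08, and nr1d2a, a REV-ERB gene, stood at 402, 1630.1, 3895 and 2566 (-0.60). Growth hormone, IGF and thyroid axis genes (27 passed) had none at 2-fold.

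Sterol and fatty acid synthesis genes stood lower in number, though few by much. Of 36 identifiers that passed 30 stood lower and 6 higher, with a median of -0.14, where 52.4% of all genes stood higher. At 2-fold 1 fell, against 1.1% of all genes. The squalene epoxidase gene SQLE stood at 1267, 1835, 1364 and 792 (-0.78), MSMO1 at 1314, 2339.6, 2053 and 1329 (-0.63) and TM7SF2 at 1389.9, 1609, 1209 and 799 (-0.60). These enzymes peaked at 60 hpf and were back near their 48 hpf level or below it at 96 hpf. The fatty acid elongase gene ELOVL7 (9396 and 9085) and the carboxylase gene ACACA (11343 and 10335) were level. Fatty acid oxidation genes (46 passed) had none at 2-fold, and the nuclear receptor gene PPARA stood at 73.7, 140.3, 248 and 128 (-0.95).

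Genes of basic cell functions had no member at 2-fold. Not 1 of 66 cytosolic ribosomal protein genes reached 1.5-fold, and 51 of them stood lower, with a median of -0.05. Their summed level was 3871298, 4256472, 5337277 and 5109131. Ribosome biogenesis (47 passed, median -0.04), proteasome (42, 0.06), cytosolic chaperones (53, 0.07) and endoplasmic reticulum folding (58, 0.08) also had none at 1.5-fold. DNA replication genes, which had stood at a median of -0.42 from 48 to 60 hpf, stood at 0.07 (51 passed), with PCNA at 31698, 24458, 21659 and 22899. Mitosis genes had a median of 0.05 after -0.52 and -0.27 in the 2 earlier steps, and the kinesin gene cenpe alone passed 1.5-fold (13656, 8882, 9033 and 6011, -0.59). Respiratory chain genes (70 passed) stood at a median of -0.03, and 2 weakly measured members, cox4i1l (11.4 to 6.49) and COX5B (ENSDARG00000068738, 72.6 to 46.2), lay 1.5-fold or more lower. Motile cilium genes had no member at 2-fold, yet 53 of 67 stood higher, against 52.4% of all genes, with a median of 0.17. The dynein gene DNAH6 stood at 2735, 2457, 868 and 1684 (0.96), DNAH7 at 1743 and 1113 (-0.65), and the transport gene IFT172 at 5130.0 and 5732 (0.16).

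**Figure D5:**
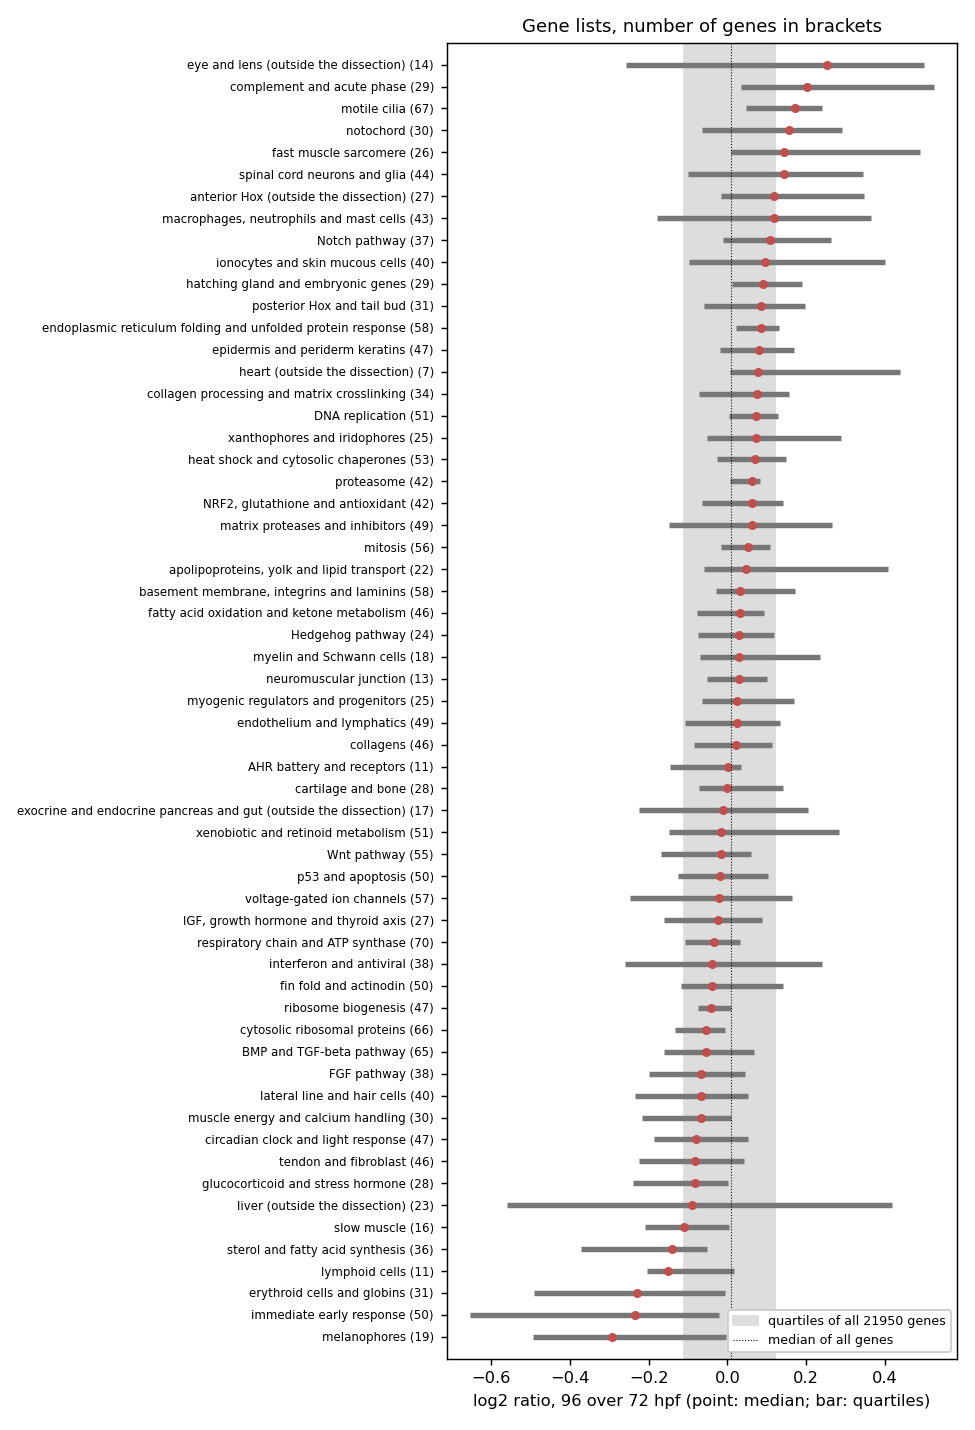
Median (point) and quartiles (bar) of the log2 ratio of 96 over 72 hpf in each gene list, with the number of genes that passed the filter in brackets, set against the quartiles of all 21950 genes (-0.11 to 0.12, shaded) and their median (dotted). Melanophore, immediate early and erythroid genes have the lowest medians (-0.29, -0.23 and -0.23). The highest median is that of eye and lens genes, a list outside the cut (0.25, 14 genes), followed by complement genes at 0.20.

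Signalling and patterning genes gave single members rather than whole groups. Of 65 BMP and TGF-beta genes 1 rose, gdf6b (192, 44.0, 16.5 and 60.6, log2 ratio 1.81), a BMP family ligand gene. The BMP target gene ID1 stood at 63981 and 57001. Of 38 FGF genes the ligand gene fgf1a rose (70.9, 84.3, 32.1 and 67.8, 1.05), and the feedback phosphatase gene DUSP6 stood at 38179.9 and 32289 (-0.24). Of 55 Wnt genes 1 rose at a low level, WNT1 (6.98 to 16.0), and WNT9A stood at 262 and 163 (-0.68). Hedgehog genes had none of 24 at 2-fold, with the coreceptor gene BOC at 23056 and 21621. In the retinoid and xenobiotic list the retinoic acid hydroxylase gene CYP26A1 was the 1 of 51 that rose (406, 227, 128 and 300.5, 1.23), and RARG (ENSDARG00000054003) stood at 951 and 572 (-0.73) while RARG (ENSDARG00000034117) stood at 22236 and 21756. The aryl hydrocarbon receptor list had none of 11 at 2-fold in these control larvae, with ahr2 at 14416 and 14499 and NQO1 at 9410.5 and 9376. Antioxidant genes had 1 of 42 up, gsto1 (5.18 to 14.9), and the NRF2 gene NFE2L2 stood at 28785 and 25448.

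Posterior identity was steady. Of 31 posterior Hox and tail bud genes that passed, cdx4 was the 1 at 2-fold, and the other 30 stayed within 1.5-fold, with HOXB13 at 27441 and 25202 and HOXC13 at 19304 and 19063. Of 29 hatching gland and embryonic genes 1 rose, the hatching enzyme gene he1.3, at 159, 24.4, 11.1 and 23.9. Among p53 and apoptosis genes (50 passed) GADD45B fell, and CCNG1 stood at 55421 and 60014.

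Lists of organs outside the cut were small after the filter. Of all genes 1.41% rose and 1.1% fell. Of 35 liver identifiers 23 passed, none rose and 3 fell. All 3 stood under 5 counts at both ages, so they passed the filter only through other samples. Among them, fetub was listed at 0 at 96 hpf. With the filter on the control samples alone the liver median moved from -0.09 to 0.03. Of the members that passed, TAT, the tyrosine aminotransferase gene, stood at 121, 308, 5247 and 8076 (0.62). Of 17 pancreas and gut genes 1 rose (VIL1, 16.7 to 50.4) and 1 fell (sst2, 30.1 to 7.58). Eye and lens genes passed in 14 of 30 identifiers, with 3 up and 1 down, all under 35 counts. Their sum of 8239 and 9769.6 came mostly from RPE65 (ENSDARG00000094752, 5783 and 6985) and RPE65 (ENSDARG00000054420, 1427 and 1679.6). Of 7 heart identifiers nppa rose (15.4 to 33.1), and myl4 stood at 5177 and 5071. Anterior Hox and brain genes (27 passed) had none at 2-fold. Apolipoprotein and yolk genes (22 passed) had 1 up and 1 down, CETP (7.22 to 23.3) and apoa2 (4.84 to 1.09), while apoc1 stood at 4248, 900.4, 554 and 1048 (0.92). The control levels of apoa2, 3.39, 4.88, 4.84 and 1.09, all lay under 10, so it passed the filter only through the exposed samples. The part of such organs in the levels of the trunk was not tested.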

How the data were processed

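Per the labels, total RNA was taken from fresh tissue and made into stranded mRNA libraries, read as single-end reads of 100 bases. Per the submitters' processing notes, the tools were FastQC, Trimmomatic, Salmon and DESeq2, and the genome build was Zv9. Versions of these tools are not given in the sources used here.

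What was deposited is a normalized signal, the authors' mean of DESeq2-normalized counts over 4 pools per condition. Read depth is unknown, so counting intervals could not be formed.

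Ratios used a pseudocount of 1, which understates changes of low genes, and required a mean level of at least 10 across the 8 samples, so the exposed samples entered that filter alone. Calls are by size (2-fold), with no test. Symbols were available for 18028 of 24345 identifiers, and 2426 shared one, beside which the identifier is printed. The 59 lists were matched by the member's own symbol or, for an older symbol, its current name (862 entries together). Otherwise the capitals form (911) or that form without the paralog letter (601) was used, and 574 entries were not matched. The genes, lists and rules were chosen with earlier results of these data known. Genes named were the 20 highest and 20 lowest ratios with a mean of 50 or more and a symbol, globins, and in each list the 2 highest and 2 lowest at 2-fold with a mean of 50 or more and the 2 with most counts. Further list members named, among them those past 1.5-fold, those at 2-fold with a lower mean and nhlh2, were chosen after their values were seen. Some genes were left out for length, and a few others are not reported here. Counting was tested on simulated data. Alternatives changed the pseudocount, filter, scale, threshold and matching. Coordinates were not used. Python 3.11.15, pandas 2.3.3, numpy 2.4.6 and matplotlib 3.10.9 were used.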

Additional observations from a re-analysis of the deposited data

How the results depend on the processing

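The counts of genes at 2-fold depended on how weak genes were treated. With a pseudocount of 10 they were 138 higher and 95 lower, without a filter on low values 762 and 699, for genes averaging at least 50 across the 8 samples 103 and 66, and for genes averaging at least 50 at 72 and 96 hpf, an alternative chosen after seeing the data, 89 and 59. A 4-fold threshold left 49 and 39, and a 1.5-fold threshold gave 868 and 762. They stayed within 1.5 times of 310 and 241 with the filter on the 4 control samples (292 and 224), the same total in every control sample (315 and 239), centring on the median gene (300 and 244) or, added after seeing the data, without genes listed at 0 in either column (290 and 214). No named gene at 2-fold changed direction, but the alternatives reuse the same 2 values of a gene and could not reverse a ratio of that size. Of 413 list medians recomputed, 23 changed sign, in 17 lists, most of them close to 0. By 0.1 or more 17 moved, 11 of them when members were matched by their own or current symbol alone. That matching left few genes in some lists. The neuromuscular junction list went from 0.03 to 0.52, the value of the 1 gene left. The eye and lens list went from 0.25 to -0.20 (7 left) and the erythroid list from -0.23 to -0.40 (18 left). Xanthophores and iridophores went from 0.07 to 0.29 (7 left). The heart list moved from 0.08 to -0.16 with a mean of 50 or more, the lymphoid list from -0.15 to 0.02 without a filter, and the liver list from -0.09 to 0.03 with a mean of 50 or more. Near the 2-fold line, FHL2 (ENSDARG00000003991) and il21r.1 stood at 0.96 and 0.92 with a pseudocount of 10. No paired analysis was possible because each condition has 1 deposited value and the labels carry no replicate numbers. Leaving out a replicate was not possible for the same reason.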
